A study of Mus musculus with 6 samples.

Results

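Matrix metalloproteinases (MMPs) are zinc enzymes that cut the proteins of the extracellular matrix, and tissue inhibitors of metalloproteinases (TIMPs) bind their active sites and block them. The genes described here were 6 MMPs (Mmp2, Mmp3, Mmp9, Mmp11, Mmp14 and Mmp23) and 4 TIMPs (Timp1 to Timp4), taken by their gene symbols in the platform annotation, 10 of 19057 symbols on the array. They had 16 probes, of which 12, for 9 genes, lay above background and were kept, and these 12 lay above background on all 6 arrays. Mmp3 was the gene with no kept probe.

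MMPs are made as inactive proenzymes. Mmp14 sits in the cell membrane and, with Timp2 as a bridge, activates the secreted gelatinase Mmp2, whereas Mmp9 is the gelatinase of neutrophils, macrophages and osteoclasts. In muscle, both gelatinases act on the basement membrane around fibres and satellite cells and are known for their part in repair and in the migration of myoblasts.

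RNA was measured on 1-colour Illumina mouse bead arrays, with 3 arrays labelled Rev-/- and 3 labelled WT. The samples are described as primary myoblasts, the muscle precursor cells, cultured from hind limb muscle. Rev-/- is the global gene-targeted null of Rev-erbα (gene Nr1d1), a nuclear receptor that represses genes of the circadian clock, and by the methods the WT mice were littermates. Both groups were C57BL/6, labelled male and 6 weeks old (the paper's methods give a younger age for myoblast isolation). Both are described as grown in F-10 medium with serum and bFGF on collagen after pre-plating to deplete fibroblasts. The labels and methods call the 3 samples independent without naming the animals, so the spread between arrays may be partly technical.

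Sex genes did not all match the labels, and Nr1d1 could not check the genotype. Nr1d1 had log2 intensities of 7.01, 6.51 and 7.14 on Rev-/- 1, 2 and 3, and of 6.59, 6.54 and 7.21 on WT 1, 2 and 3. Its 1 probe did not separate the labels, but it lay above background on only 3 arrays, 2 Rev-/- and 1 WT. With the probe at background on WT 1 and WT 2, a loss could not be shown against them. It was above background on WT 3, but also on Rev-/- 1 and Rev-/- 3, and its place in the targeted gene is not known. Directions are therefore those between arrays as labelled. The satellite cell genes Pax7 and Myf5 were above background on 0 arrays, while Myod1, Myog and Des were above it on all 6, as were Ckm, the creatine kinase of mature fibres, at 13.87 to 14.12, the red cell gene Hba-a1 at 14.21 to 14.60, and all 7 endothelial markers. Transcripts that mark cells other than myoblasts were thus measured on all arrays, although the methods describe cultured myoblasts. Which cells gave the RNA was not tested. Array Rev-/- 1 was the least like the rest: its correlations with them averaged 0.978, and those of the other 5 arrays 0.988 to 0.99. The brightest probe of Xist, which females express from the silenced X, was at 6.62, 9.72 and 10.75 on Rev-/- 1, 2 and 3, and at 10.24, 9.76 and 10.01 on WT 1, 2 and 3, although all mice are labelled male. The Y-linked Eif2s3y was at 9.08, 8.26 and 6.82 on Rev-/- and at 6.72, 8.39 and 8.56 on WT. Xist was above background on every array but Rev-/- 1, and Rev-/- 2, WT 2 and WT 3 were high for both genes. What this means for the source of the samples was not tested. All values below are log2 of quantile-normalized intensity unless a fold change is named.

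Promoter sequence was at hand in RefSeq (GRCm38.p6) for 8 of the 10 genes, and 3 are shown, each as the 250 bases before the annotated start on the strand of the gene: Timp1, which varied most among the inhibitors, Timp3, which hardly varied, and Mmp3, which was not kept. Capitals mark matches to the AP-1 motif (TGANTCA), the ETS core (AGGAAG), both searched on both strands, and the TATA box (TATAAA), searched on the strand of the gene.
Timp1, chrX:20869916-20870165, plus strand: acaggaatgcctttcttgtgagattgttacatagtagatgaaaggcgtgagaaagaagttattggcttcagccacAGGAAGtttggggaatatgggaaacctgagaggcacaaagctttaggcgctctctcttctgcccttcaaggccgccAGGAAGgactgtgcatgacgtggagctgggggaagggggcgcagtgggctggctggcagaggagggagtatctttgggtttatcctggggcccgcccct
Timp3, chr10:86300162-86300411, plus strand: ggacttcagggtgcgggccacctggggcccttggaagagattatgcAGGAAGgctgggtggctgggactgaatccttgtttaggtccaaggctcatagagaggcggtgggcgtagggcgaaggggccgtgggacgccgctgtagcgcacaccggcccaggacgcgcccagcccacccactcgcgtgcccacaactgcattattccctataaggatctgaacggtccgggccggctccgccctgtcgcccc
Mmp3, chr9:7445572-7445821, plus strand: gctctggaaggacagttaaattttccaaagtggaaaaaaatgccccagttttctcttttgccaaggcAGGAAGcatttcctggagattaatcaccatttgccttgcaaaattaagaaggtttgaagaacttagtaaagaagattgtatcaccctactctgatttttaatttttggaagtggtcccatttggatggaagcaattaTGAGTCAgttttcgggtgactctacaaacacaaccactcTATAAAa

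Counted back from the start, Mmp3 held an AP-1 match from -46 to -40 and a TATA box from -7 to -2, and no other of the 8 genes held either. Over all 32851 promoter windows of this length the AP-1 motif was found in 6.75% and the TATA box in 7.59%. The ETS core was found in 5 of the 8 genes (Mmp3, Mmp14, Timp1, Timp3 and Timp4), against 29.5% of all windows. The response element shared by Rev-erbα and ROR (RORE, searched on both strands as AANT followed by AGGTCA or GGGTCA, without overlap with the other motifs) was found in 0 of the 8 and in 0.35% of all windows. The Timp3 window was rich in CpG, with 18 such pairs and 65.6% G and C, whereas Mmp3 had 1 and 37.6%, against medians of 6 and 52.4% over all windows. These matches describe the letters of the windows and nothing of what binds there.

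No MMP or TIMP probe passed the test between the labels, and the differences of Mmp9 and Timp1 were set by array Rev-/- 1. Of the 12 kept probes, 0 were called by limma (adjusted p of at most 0.05 over all probes and a fold of at least 1.5), as were 0% of the 18133 probes tested, among which no adjusted p was below 0.997. Before adjustment 1 of them, Mmp23, had a p of at most 0.05, with the higher mean on the Rev-/- arrays, against 1.27% of all probes higher and 1.8% lower. The Rev-/- mean was the higher for 9 of the 12 probes, against 47.7% of all probes, and for 8 without Rev-/- 1, against 49.6%. These 12 include 3 probes of Timp3 and 2 of Timp1. By the brightest kept probe of each gene, the 9 genes had a median log2 fold change of 0.26 between Rev-/- and WT, against -0.005 over all 11624 genes. Without Rev-/- 1 the medians were 0.043 for the 9 genes and -0.0048 over all genes, and with the array medians aligned they were 0.041 and -0.11. The sign turned for Mmp11, Mmp14, Timp2 and Timp3 on the deposited values without normalization, where the median of all probes was itself -0.13.

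**Figure D1:**
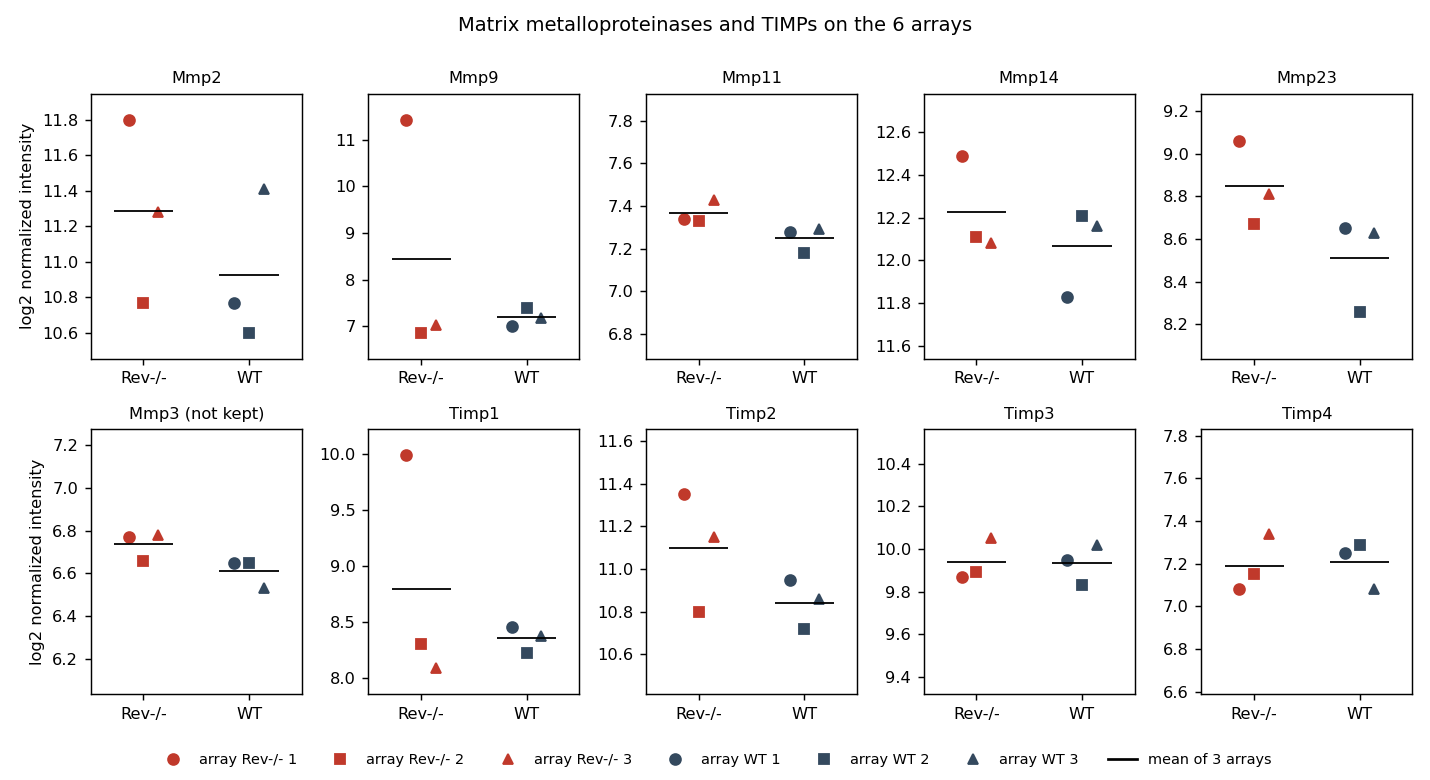
Log2 normalized intensity of the brightest kept probe of each gene (for Mmp3, its brightest probe) on the 3 Rev-/- arrays, at the left of each panel, and the 3 WT arrays, at the right, with the mean of each group as a line; each panel has its own scale. Rev-/- 1, the red circle, lies far above the other arrays for Mmp9 (11.43) and Timp1 (9.99), and the groups do not overlap for Mmp11 and Mmp23.

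Mmp9, gelatinase B (gene at chr2:164940326-164955850), was at 11.43, 6.86 and 7.04 on Rev-/- 1, 2 and 3, and at 7.0, 7.40 and 7.18 on WT 1, 2 and 3. Only Rev-/- 1 was high, 20.9-fold over the median of the other 5 arrays, and the other Rev-/- arrays lay within or below the WT range. The means were 8.44 ± 2.6 on Rev-/- and 7.19 ± 0.2 on WT (SD, n = 3 each), a log2 fold change of 1.25 (SE 1.11, 95% interval -1.36 to 3.86, limma adjusted p = 0.997; exact permutation p = 0.9, 2-sided). Without Rev-/- 1 the log2 fold change was -0.24 (SE 0.12, interval -0.54 to 0.05), so the sign rested on that array. On the other 5 arrays Mmp9 lay little above the background limits of 6.65 to 6.77, which limits both values. Among all 18133 probes, the excess of Mmp9 on Rev-/- 1 over the median of the other arrays ranked 3.

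Mmp2, gelatinase A (chr8:92827290-92853421), was at 11.80, 10.77 and 11.28 on Rev-/- 1, 2 and 3, and at 10.77, 10.60 and 11.41 on WT 1, 2 and 3. Rev-/- 1, Rev-/- 3 and WT 3 were high and the other 3 low, so that each label held both levels and the groups overlapped. The log2 fold change was 0.36 (SE 0.29, interval -0.33 to 1.04) and 0.10 (SE 0.25) without Rev-/- 1. The SD of Mmp2 over the 6 arrays was 0.47, the rank 133 among 11624 genes, whose median SD was 0.11, and that of Mmp9 was 1.8, the rank 5.

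**Figure D2:**
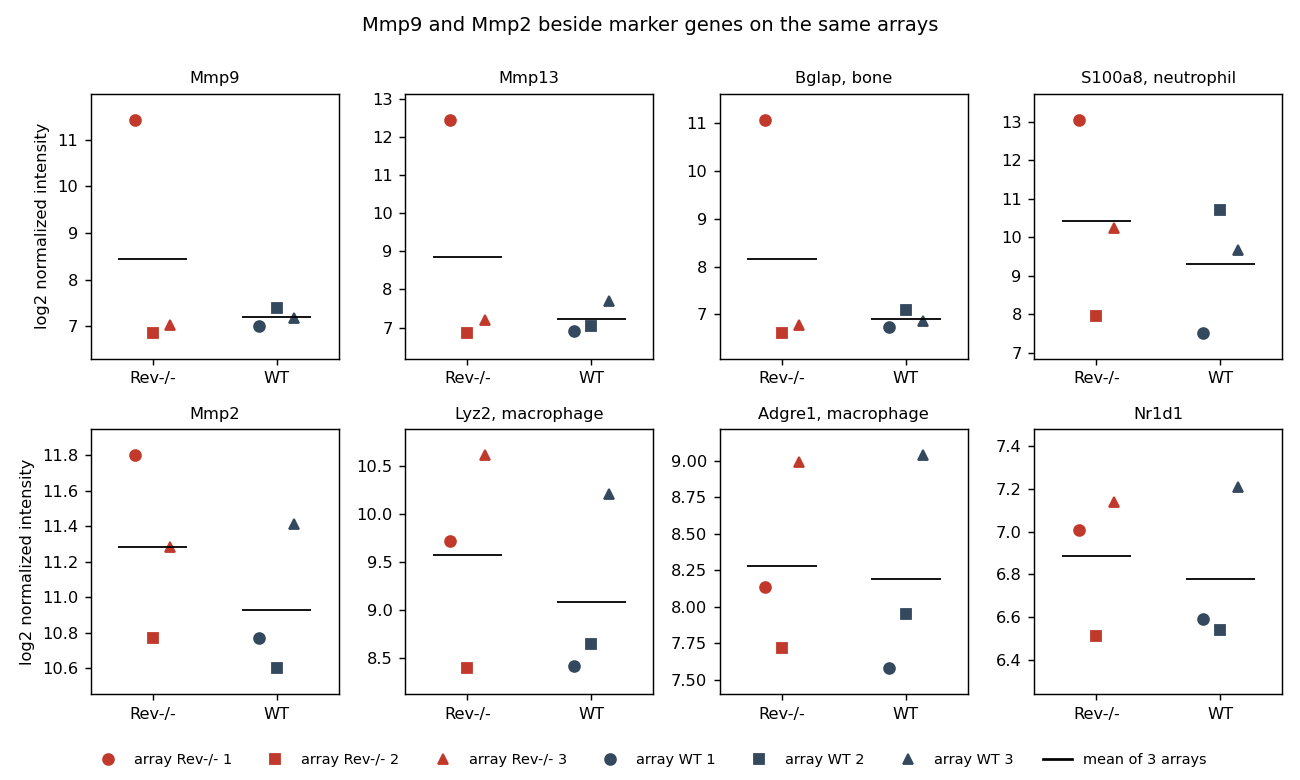
Log2 normalized intensity of Mmp9, Mmp13 and Mmp2 beside Bglap (bone), S100a8 (neutrophil), Lyz2 and Adgre1 (macrophage) and Nr1d1 on the 3 Rev-/- arrays, at the left of each panel, and the 3 WT arrays, at the right; lines are group means and each panel has its own scale. In the upper row Rev-/- 1 is the highest array of all 4 genes, and in the lower row Rev-/- 1, Rev-/- 3 and WT 3 are the 3 highest arrays of all 4.

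Markers of other cell types moved with Mmp9 and, in part, with Mmp2. All 9 kept neutrophil markers and all 6 kept osteoblast markers were highest on Rev-/- 1, as were 5 of 6 of chondrocytes and all 3 of osteoclasts. The summed intensity of the neutrophil list ran from 1120 to 18085 on the Rev-/- arrays, with the highest on Rev-/- 1, and from 1034 to 3452 on WT, and that of the osteoblast list from 667 to 9732 on Rev-/- and from 676 to 810 on WT. That of the 3 kept osteoclast markers (Ctsk, Oscar and Dcstamp) ran from 1068 to 6031 on Rev-/- and from 1159 to 1239 on WT. Its rise on Rev-/- 1 was almost all from Ctsk, at 12.49 there, with Oscar at 7.26 and Dcstamp at 7.07. The other 5, among them Acp5 and Calcr, were not kept. Of the neutrophil list Mmp8, the neutrophil collagenase, was above background on 0 arrays. Bglap, the bone protein osteocalcin, was at 11.08, 6.61 and 6.77 on Rev-/- 1, 2 and 3, and at 6.73, 7.10 and 6.87 on WT 1, 2 and 3, and S100a8 at 13.05, 7.95 and 10.23 on Rev-/- and 7.51, 10.71 and 9.67 on WT. WT 2, the array with the next highest Mmp9, was also next highest for both. Mmp13, a collagenase of cartilage and bone, was at 12.46, 6.86 and 7.21 on Rev-/- 1, 2 and 3, and at 6.91, 7.05 and 7.69 on WT 1, 2 and 3, for the brightest of its 3 probes, while the other probes were at 6.93 and 7.10 on Rev-/- 1. Of the 4 kept red cell markers, 2 were highest on Rev-/- 1, Slc4a1 and Alas2, and Hba-a1 and Hbb-b2 were not. Slc4a1, the anion exchanger of red cells, was at 13.20, 9.07 and 9.67 on Rev-/- 1, 2 and 3. On WT 1, 2 and 3 it was at 8.71, 11.17 and 9.13. The 4 kept red cell markers summed to 33833, 23673 and 25465 on Rev-/- and to 20267, 25222 and 26023 on WT. The part of these cell types in the signal of Mmp9 was not tested, and in such bulk RNA fewer cells of a type and less RNA per cell cannot be told apart.

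Of the arrays high in Mmp2, Rev-/- 3 and WT 3 were also high in macrophage genes, and Rev-/- 1 less so. No kept macrophage marker was highest on Rev-/- 1, the array with the highest Mmp2. Lyz2, lysozyme, was at 9.72, 8.39 and 10.61 on Rev-/- 1, 2 and 3, and at 8.41, 8.64 and 10.20 on WT 1, 2 and 3. The 7 kept macrophage markers summed to 2838, 2151 and 4575 on Rev-/- and to 2086, 2225 and 4007 on WT. Of these 7, Lyz2, Adgre1, Csf1r, C1qa and C1qb had their 3 highest values on Rev-/- 1, Rev-/- 3 and WT 3, and Cd14 and Mrc1 did not, being high on Rev-/- 3 and WT 3 only. Itgam, an integrin of myeloid cells, was above background on 0 arrays. The 8 fibroblast markers, for cells that make Mmp2, summed to 33422, 23802 and 24033 on Rev-/- 1, 2 and 3 and to 27618, 23151 and 22519 on WT 1, 2 and 3. The sum was highest on Rev-/- 1 but not raised on Rev-/- 3 and WT 3 together. It weighs bright genes such as Col1a1 (13.89 on Rev-/- 1) most. Of the 8 markers only 3 (Lum, Col1a1 and Col1a2) were highest on Rev-/- 1, and Dpt was lowest there. The part of these cells in the Mmp2 signal was not tested.

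The membrane-bound proteases varied less than Mmp9 and Mmp2, with SDs over the 6 arrays of 0.22 for Mmp14 and 0.26 for Mmp23. These were still above the median SD of 0.11, at ranks 1159 and 619 among 11624 genes. Mmp14 (MT1-MMP, chr14:54431598-54442456) was at 12.49, 12.11 and 12.08 on Rev-/- 1, 2 and 3, and at 11.83, 12.21 and 12.16 on WT 1, 2 and 3. Rev-/- 1 was the highest and WT 1 the lowest, with the other 4 arrays between 12.08 and 12.21. The log2 fold change was 0.16 (SE 0.14, interval -0.17 to 0.50), 0.028 without Rev-/- 1 and -0.073 with the array medians aligned. A second Mmp14 probe was above background on 0 arrays.

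Mmp23, a protease anchored in the membrane of the secretory pathway (chr4:155650655-155654539), was at 9.06, 8.67 and 8.81 on Rev-/- 1, 2 and 3, and at 8.65, 8.26 and 8.63 on WT 1, 2 and 3. All Rev-/- arrays were above all WT arrays, with Rev-/- 2 and WT 1 nearly level. The log2 fold change was 0.34 (SE 0.14, interval 0.01 to 0.66; limma p = 0.0435 unadjusted, adjusted p = 0.997; exact permutation p = 0.1, 2-sided, the smallest that 3 against 3 allows). It was 0.23 (SE 0.13) without Rev-/- 1, and positive under all 16 alternatives, from 0.091 to 0.43.

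Mmp11, stromelysin 3 (chr10:75923221-75932502), was at 7.34, 7.33 and 7.43 on Rev-/- 1, 2 and 3, and at 7.28, 7.18 and 7.29 on WT 1, 2 and 3. The groups did not overlap but lay close, with a log2 fold change of 0.12 (SE 0.064, interval -0.03 to 0.27) and 0.13 without Rev-/- 1. Mmp11 and Mmp23 were the 2 of 12 probes with all Rev-/- arrays above all WT arrays, which held for 3.73% of all probes. Without Rev-/- 1 they were again 2 of 12, against 9.23% of all probes.

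Mmp3, stromelysin 1 (chr9:7445822-7455975), had 3 probes, none above background on the 3 arrays that the filter asked for. The brightest was at 6.77, 6.66 and 6.78 on Rev-/- 1, 2 and 3, and at 6.65, 6.65 and 6.53 on WT 1, 2 and 3. It was above background on 2 Rev-/- arrays and 0 WT arrays, close to the limit, and with fewer than 3 such arrays it was not tested after the filter. The other probes were each above background on 1 array.

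**Figure D3:**
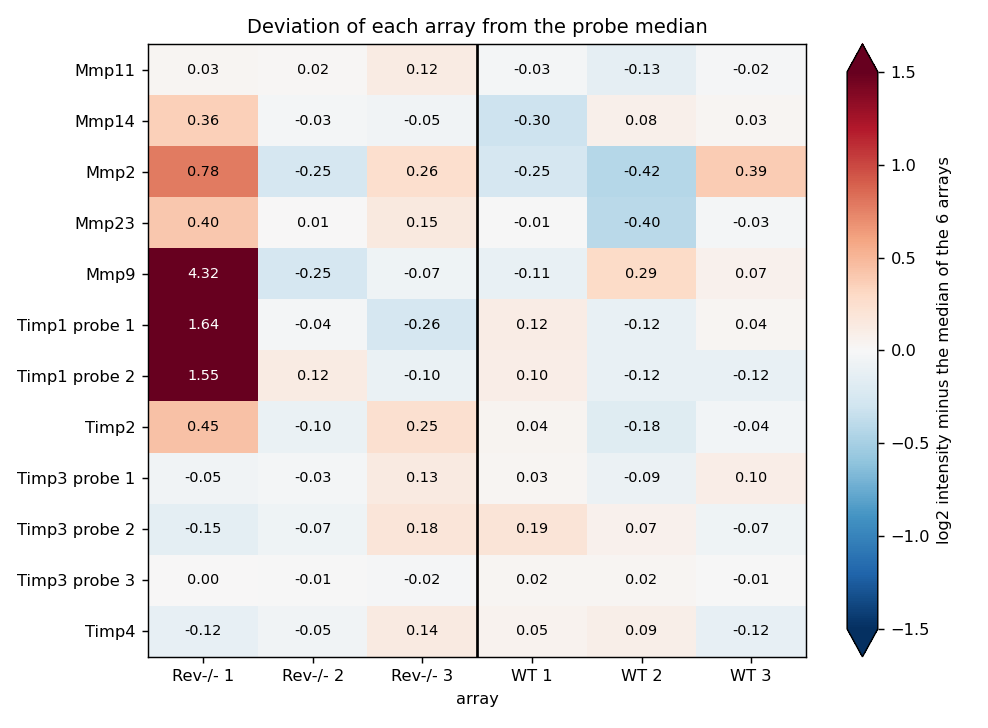
Log2 intensity minus the median of the 6 arrays (colour, with the value printed) for the 12 kept probes, Rev-/- arrays left of the line and WT arrays right of it; colours saturate at 1.5 either way. The column of Rev-/- 1 holds the deviations above 1, for Mmp9 and both Timp1 probes, while the rows of Timp3 and Timp4 stay within 0.2 of their median.

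Among the inhibitors, Timp1 (chrX:20870166-20874737), a secreted TIMP induced by cytokines, was at 9.99, 8.31 and 8.09 on Rev-/- 1, 2 and 3, and at 8.46, 8.23 and 8.38 on WT 1, 2 and 3, for the brighter of its 2 probes. The other was at 9.84, 8.41 and 8.19 on Rev-/- and at 8.38, 8.17 and 8.17 on WT. On both probes Rev-/- 1 was the one high array, 3.19-fold and 3.13-fold over the median of the other 5. The log2 fold change was 0.44 (SE 0.45, interval -0.61 to 1.5) and 0.57 (SE 0.39) with all arrays, and -0.16 (SE 0.10) and 0.058 (SE 0.10) without Rev-/- 1, where the probes differed in sign. The neutrophil, bone and cartilage markers high on Rev-/- 1 are those given for Mmp9, and their part in the Timp1 signal was not tested.

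Timp2, the inhibitor that also bridges Mmp14 and pro-Mmp2 (chr11:118301061-118355411), was at 11.35, 10.80 and 11.15 on Rev-/- 1, 2 and 3, and at 10.95, 10.72 and 10.86 on WT 1, 2 and 3. Rev-/- 1 and 3 lay above the WT arrays and Rev-/- 2 within them. The log2 fold change was 0.26 (SE 0.14, interval -0.07 to 0.59), 0.13 (SE 0.12) without Rev-/- 1, and -0.017 with the array medians aligned.

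Timp3, the TIMP that is held in the matrix (chr10:86300412-86349505), was level, at 9.87, 9.89 and 10.05 on Rev-/- 1, 2 and 3, and at 9.95, 9.83 and 10.02 on WT 1, 2 and 3, for the brightest of 3 probes. Its log2 fold change was 0.0037 (SE 0.079, interval -0.18 to 0.19), and -0.073 and -0.022 for the other probes. The 3 were at 0.039, -0.0052 and -0.026 without Rev-/- 1. The interval leaves out a 1.5-fold difference either way in this scaling. With the array medians aligned it was -0.23 and without normalization -0.28.

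Timp4, an inhibitor of heart and muscle (chr6:115244444-115252205), was at 7.08, 7.15 and 7.34 on Rev-/- 1, 2 and 3, and at 7.25, 7.29 and 7.08 on WT 1, 2 and 3. The groups overlapped throughout, with a log2 fold change of -0.013 (SE 0.092, interval -0.23 to 0.20), and 0.043 without Rev-/- 1. Rev-/- 1 was at the low end for Timp4, whereas it was the highest array for 6 of the 9 kept genes (Mmp2, Mmp9, Mmp14, Mmp23, Timp1 and Timp2). Of all genes, 21.9% were highest on it. The other 3 (Mmp11, Timp3 and Timp4) were highest on Rev-/- 3.

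**Figure D4:**
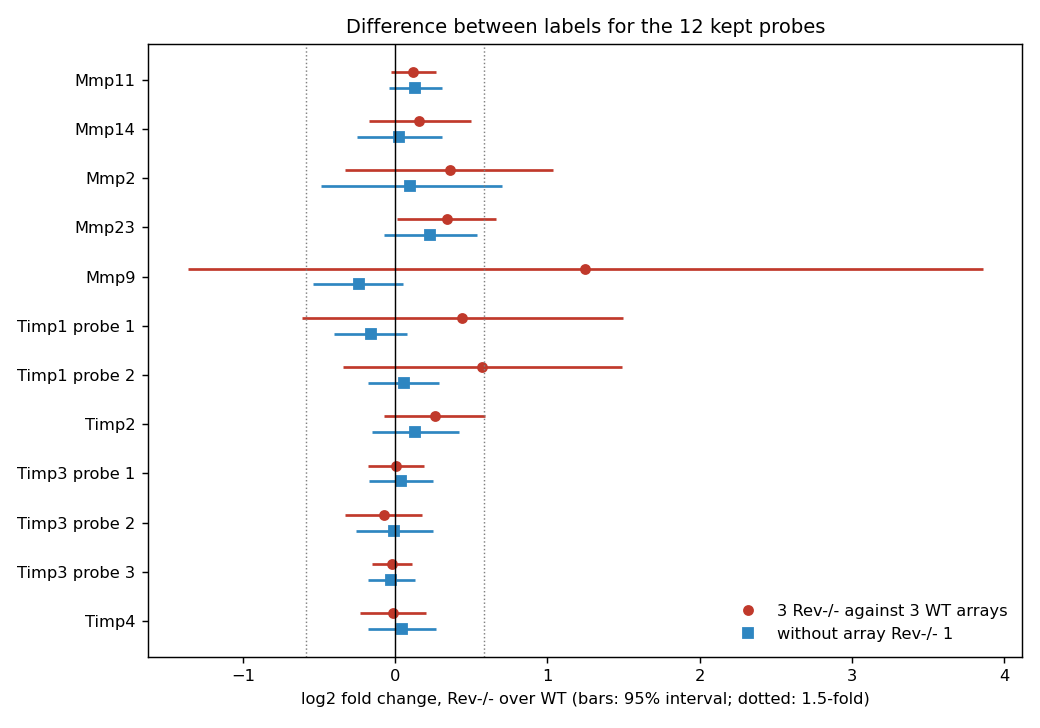
Log2 fold change of Rev-/- over WT for the 12 kept probes, with its 95% interval from limma, from all arrays (red circles) and without array Rev-/- 1 (blue squares); dotted lines mark 1.5-fold. The interval of Mmp9 runs from -1.36 to 3.86 with all arrays and from -0.54 to 0.05 without Rev-/- 1, and those of Timp3 and Timp4 lie within 1.5-fold in both.

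Over the 6 arrays, Mmp9 and Timp1 had a Pearson r of 0.97, and Mmp23 and Timp2 of 0.90. Over the 5 arrays without Rev-/- 1 these were -0.20 and 0.79, and Mmp2 with Timp2 was 0.81 and 0.57. These are descriptions over arrays that share their normalization. Among 424 genes with an SD of at least 0.3, the 5 most like Mmp9 over the 6 arrays were Bglap (r = 0.9999), the bone and skin factor Dlx3 (0.9987), the B cell receptor chain Cd79b (0.9978), the bone sialoprotein Ibsp (0.9968) and the spermine oxidase Smox (0.9966). Those most like Timp1 were Fam102a (0.9931), the liver serpins Serpina1e (0.9903) and Serpina1c (0.9889), the liver and bone glycoprotein Ahsg (0.9896) and Lrrc15 (0.988). All 10 were highest on Rev-/- 1, as Ahsg at 9.79 there and 6.77 to 7.31 elsewhere. Over the 5 arrays without Rev-/- 1 the r with Mmp9 was 0.997 for Bglap, 0.873 for Dlx3, 0.918 for Cd79b, 0.654 for Ibsp and 0.741 for Smox. The r with Timp1 was then 0.767 for Fam102a, 0.666 for Serpina1e, 0.888 for Serpina1c, 0.65 for Ahsg and 0.543 for Lrrc15. Bglap with Mmp9 was the highest of these, at levels near background (Bglap at 6.61 to 7.10). The 5 arrays were among those by which the genes were picked, so these r are not separate from that choice.

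Of the other MMPs on a list of 17, 15 were on the array and 7 were kept, with a median log2 fold change of 0.0027 and 0 called. Mmp16 and Mmp17, both membrane-bound, were at 0.091 (SE 0.14) and -0.052 (SE 0.072), or -0.064 and -0.012 without Rev-/- 1. Mmp13 was at 1.63 (SE 1.36), or -0.18 (SE 0.23) without that array. The 15 kept ADAM and ADAMTS proteases, which shed receptors and cut proteoglycans, had a median of -0.0021, with Adamts9 at 0.37 (SE 0.30), Adamts1 at -0.12 (SE 0.086) and Adamts7 at -0.10 (SE 0.081). Leaving out Rev-/- 1, these were at 0.60, -0.07 and -0.10. With all arrays, a dimmer kept probe of Adamts9 was at -0.058, and those of Adamts1 were at 0.018 and -0.0049. In neither list did any gene reach a p of 0.05 before adjustment (0 of 7 and 0 of 15), against 1.27% of all probes higher and 1.8% lower.

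Genes that activate proMMPs, 7 kept, had a median of -0.0056, with 0 called, 0 higher and 2 lower at an unadjusted p of at most 0.05. Over all probes 1.27% were higher and 1.8% lower at that threshold. Those 2 were Plau, urokinase, and Plaur, its receptor. Plau was at 7.54, 7.53 and 7.69 on Rev-/- 1, 2 and 3, and at 7.84, 7.75 and 7.72 on WT 1, 2 and 3 (log2 fold change -0.18, SE 0.072). Plaur was at 6.88, 6.66 and 6.71 on Rev-/- and at 7.01, 6.90 and 6.92 on WT, above background on 4 of 6 arrays (log2 fold change -0.19, SE 0.077). Neither was called. Plaur was above background on 1 Rev-/- and 3 WT arrays, so its Rev-/- values lay near the floor, which limits its fold change. Plg, plasminogen, was at 0.11 (SE 0.066). With Rev-/- 1 left out, Plau was at -0.16, Plaur at -0.26 and Plg at 0.14.

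Other inhibitors, 7 kept, had a median of 0.065, with Pcolce, an enhancer of procollagen processing, at 0.20 (SE 0.096), the cystatin Cst3 at -0.15 (SE 0.091) and Spock2 at -0.14 (SE 0.064). Without Rev-/- 1 these were at 0.12, -0.097 and -0.15. Spock2 was above background on 0 Rev-/- and 3 WT arrays. It was thus kept only through the group where it was higher, which limits its fold change. Cell surface partners of MMPs, 8 kept, had a median of 0.077, with the docking receptor Cd44 at 0.16 (SE 0.069), Cav1 at -0.23 (SE 0.11) and Cd9 at 0.24 (SE 0.12), or 0.16, -0.23 and 0.14 without that array. The 11 kept AP-1, ETS and NF-kB factors, which drive many MMP promoters, had a median of 0.0074, with Junb at 0.34 (SE 0.16), Ets2 at -0.12 (SE 0.11) and Etv4 at -0.17 (SE 0.13), or 0.15, -0.17 and -0.021 without it. The 6 cathepsins, lysosomal proteases, had a median of 0.0055. Ctsk, the collagen-cutting cathepsin of osteoclasts, was at 12.49, 9.74 and 9.95 on Rev-/- 1, 2 and 3, and at 9.99, 9.87 and 9.99 on WT 1, 2 and 3, a log2 fold change of 0.78 (SE 0.66) with all arrays and -0.11 (SE 0.09) without Rev-/- 1, and Ctsz and Ctsl were at 0.15 (SE 0.11) and -0.077 (SE 0.071), or 0.091 and -0.10 without that array. Of these 4 lists 0 genes were called. Cd44 alone passed an unadjusted threshold of 0.05 in limma, which 1.27% of all probes passed in that direction. It did so on its brightest probe only. Its dimmer kept probes were at 0.14, -0.063, 0.092, -0.042 and 0.067.

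Of 16 kept substrates the median was 0.078, with 0 called and 2 higher at an unadjusted p of at most 0.05, against 1.27% of all probes. Eln, elastin, which Mmp2 and Mmp9 can cut, was at 10.61, 10.22 and 10.46 on Rev-/- 1, 2 and 3, and at 9.99, 9.85 and 9.83 on WT 1, 2 and 3, with a log2 fold change of 0.54 (SE 0.11) and 0.45 (SE 0.097) without Rev-/- 1. Fn1, fibronectin, was at 0.30 (SE 0.095) and 0.24 (SE 0.094) without it, and the laminin chain Lamb1 at -0.10 (SE 0.078) and -0.088. A dimmer kept probe of Eln was at 0.0061 with all arrays, and the dimmer kept probes of Fn1 were at 0.076, 0.077 and 0.021. The medians of the 8 lists without Rev-/- 1 ran from -0.069 for the cathepsins to 0.019 for the surface partners. On the brightest probes of Eln and Fn1 all Rev-/- arrays lay above all WT arrays, as for 3.73% of all probes. Neither passed the adjusted test.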

How the data were processed

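RNA of 6 samples, described as primary myoblasts, was measured on Illumina Mouse WG-6 arrays. The deposited table holds probe intensities on a linear scale that the authors, by their methods, background-subtracted and quantile-normalized with lumi. Its columns have array medians of 98.38 to 106.9 and do not share 1 distribution. GenomeStudio, lumi and limma are named in the submitters' processing notes, without versions. Another table holds 12 per-sample columns named by array position, which were not used.

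The deposited intensities of 45281 probes were quantile-normalized and taken to log2 (limma 3.58.1, R 4.3.3). Of the probes 34885 carried 1 symbol, 18 several and 10378 none. On each array the background limit was the 95th percentile of the dim side of the intensity density mirrored at its peak, and probes above it on at least 3 arrays were kept, 18133 with 1 symbol. Between 20713 and 21900 probes per array lay above the limit. Precision is limited by the number of arrays.

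The labels were compared by lmFit and eBayes and Benjamini-Hochberg adjustment over all kept probes with 1 symbol, and single genes also with an exact permutation test. A gene is represented by its brightest kept probe. The steps were tested on simulated data. Named genes were all members, per list the 3 of smallest p and any with an SD of at least 1, and the 5 genes most like the most variable member and the most variable TIMP. Single markers were named for the arrays on which they were high, after their values were seen. Gene positions are those of GRCm38.p6 in RefSeq, and promoters are from the same source. The members and lists were chosen with earlier results of these data known. Alternatives were other normalizations, background, filters, weights, priors, a replicate block, probe means and leaving out each array.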

Additional observations from a re-analysis of the deposited data

How the results depend on the processing

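The count of probes called stayed at 0, for all probes and for the MMP and TIMP probes, under all alternatives run, the replicate block and the 6 fits that each left out 1 array included (range 0 to 0), and at an adjusted p with no fold minimum. Before adjustment 557 probes had a p of at most 0.05, and 320 to 3572 over the alternatives, with 0 to 2 from the MMP and TIMP genes. With the replicate block 2 of these 12 probes passed it, and the block changed no call. Same-numbered Rev-/- and WT arrays had deviations that correlated at -0.14, 0.14 and 0.04, so the numbers were not taken as pairs. Directions turned for Mmp14 (-0.073), Timp2 (-0.017) and Timp3 (-0.23) with the array medians aligned, and for Mmp11 (-0.0061), Mmp14 (-0.12), Timp2 (-0.064) and Timp3 (-0.28) on the deposited values without normalization. In that setting the median of all probes was -0.13. Timp3 was also at -0.03 as the mean of its probes, and Timp4 at 0.021 with array weights. Leaving out 1 array gave -0.24 to 2.04 for Mmp9, -0.16 to 0.79 for Timp1, -0.051 to 0.047 for Timp3 and -0.089 to 0.043 for Timp4, and Mmp9 and Timp1 turned sign without Rev-/- 1. Mmp2 (0.033 to 0.61) and Mmp23 (0.091 to 0.43) kept their sign under all 16 alternatives each. The median over the 9 genes ran from -0.0061 on the deposited values to 0.41 without Rev-/- 2. The cause of these changes was not tested. Signal close to background limits Mmp3, Mmp11, Timp4 and, on the 5 arrays other than Rev-/- 1, Mmp9.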
